A study of Mus musculus with 22 samples.

Results

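The mammary gland microRNAs (miRNAs) of mice fed flaxseed oil, either inside whole flaxseed or alone, were set against those of mice whose diets held none. The 4 diets were read as a 2 by 2 layout with the oil as 1 factor and the lignan SDG as the other. The oil-containing lanes were those of the 10% flaxseed diet (oil and lignan, 6 lanes) and the 3.67% flaxseed oil diet (oil without lignan, 5 lanes), which made 11 of the 22 lanes. The 11 lanes without flaxseed oil came from the 0.15% SDG diet (lignan without oil, 6 lanes) and the basal AIN-93G diet (neither, 5 lanes). All mice were female C57BL/6, aged 4 to 5 weeks at randomization with 6 to a diet, and ate their diet for 3 weeks before total RNA was taken from the left gland of the 4th pair. The submitters had excluded 2 further lanes, 1 of the flaxseed oil diet and 1 of the basal diet, for too few probes above background. Each lane title names 1 numbered female, so a lane is read here as the RNA of 1 gland. Its values are counts of fluorescent barcodes on a NanoString mouse miRNA panel, which counts molecules by hybridization without amplification. The labels do not state outright that no glands were pooled, nor which lanes were run in the same batches. The spread between lanes is taken here as the spread between mice.

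Flaxseed oil is rich in alpha-linolenic acid, a plant omega-3 fatty acid. SDG, secoisolariciresinol diglucoside, is the main lignan of the seed, and gut bacteria turn it into enterolactone and enterodiol, which bind oestrogen receptors weakly. Whole flaxseed also brings fibre and protein that neither component carries, so a comparison over the oil factor is not a comparison of oil alone. AIN-93G is a purified rodent diet whose own fat is soybean oil; "without oil" below means without flaxseed oil. miRNAs are short RNAs that guide Argonaute proteins to messenger RNAs, chiefly by pairing through the seed, bases 2 to 8 from the 5′ end. In the mammary fat pad they come from several cell types: miR-200c and miR-141 from luminal epithelium, miR-205 from basal epithelium, miR-143 from stroma, miR-126 from endothelium and miR-150 from lymphocytes.

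The sequences below are those of the miRNAs on which the oil comparison turns. Those of the first set had the smallest p-values in it, each shown with a family member where a pair shares its seed. Those of the second set lay on opposite sides of 0 in its 2 lignan levels. The seed is in capitals, and positions are those of RefSeq on GRCm38.p6. Of the 20 leading miRNAs, 15 were found in the RefSeq table. The panel's names mostly give no arm, so the arm shown is the one that the older name stood for.
let-7g: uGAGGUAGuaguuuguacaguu
miR-98: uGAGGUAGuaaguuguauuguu
let-7b: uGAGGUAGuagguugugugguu
miR-30e: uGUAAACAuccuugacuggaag
miR-30a: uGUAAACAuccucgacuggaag
miR-27b: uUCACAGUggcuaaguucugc
miR-25: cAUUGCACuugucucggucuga
miR-499: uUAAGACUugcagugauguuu
miR-543: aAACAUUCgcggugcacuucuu
miR-3471: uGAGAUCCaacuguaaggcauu
miR-92a: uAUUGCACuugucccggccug
miR-15b: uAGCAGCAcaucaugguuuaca
miR-106b: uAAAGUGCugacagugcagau
miR-342-3p: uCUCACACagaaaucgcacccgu
miR-133b: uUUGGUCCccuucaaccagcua
miR-410: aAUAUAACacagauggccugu
The 3 let-7 members shown share the seed GAGGUAG, miR-30e and miR-30a share GUAAACA, and miR-25 and miR-92a share AUUGCAC. Counted from the 5′ end, miR-30e and miR-30a differ at a single base, U13C. The bases at which let-7g and let-7b differ are U12G, A17G, C18U and A19G. Sequences this close can share signal on a hybridization panel, and the labels do not state how far the probes separate them, so single members of these families are uncertain. let-7g lies at chr9:106178846-106178867 on the plus strand, miR-98 at chrX:151913229-151913250 on the plus strand and miR-30e at chr4:120772660-120772681 on the minus strand. miR-27b lies at chr13:63300760-63300780 on the plus strand and miR-499 at chr2:155622893-155622913 on the plus strand, inside an intron of the myosin gene Myh7b. miR-25 (chr5:138165332-138165353) and miR-106b (chr5:138165787-138165807) share an intron of Mcm7 on the minus strand. miR-543 (chr12:109717304-109717325) and miR-410 (chr12:109743764-109743784) lie on the plus strand of the imprinted Dlk1-Dio3 domain, whose miRNAs are transcribed from the maternal chromosome.

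Markers of epithelium, fat, stroma, endothelium and lymphocytes were detected in every lane, as was the muscle miRNA miR-1. Myeloid and red cell markers were not among those checked here. Of the markers checked, miR-200c, miR-141, miR-205, miR-378, miR-143, miR-126-3p, miR-199a-3p, miR-1 and miR-150 were above background in 22 of 22 lanes, while the neuronal miR-124 was above it in 1 lane and the liver's miR-122 in 10 lanes. Total endogenous counts ran between 343479 and 731407 in oil-containing lanes and between 260062 and 761468 in lanes without oil. For total count, background threshold, share of probes above background, positive controls, housekeeping mRNAs and miR-720 share, none of the 6 differences over the oil factor passed (exact permutation tests within lignan strata, two-sided, p from 0.205 to 0.783, smallest adjusted p = 0.549). A large part of the count in 3 lanes came from miR-720, a tRNA piece once listed among the miRNAs. Its share was 53.7% in flaxseed lane 3 (exact 95% binomial interval 53.6% to 53.9%), 47.4% in SDG lane 5 (47.3% to 47.5%) and 65.5% in basal lane 1 (65.3% to 65.6%), and 8.62% or less in the other lanes. These intervals cover counting error only. These 3 lanes, called miR-720-rich below, also hold the extreme values of many miRNAs, and results that rest on them are given with and without them.

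**Figure D1:**
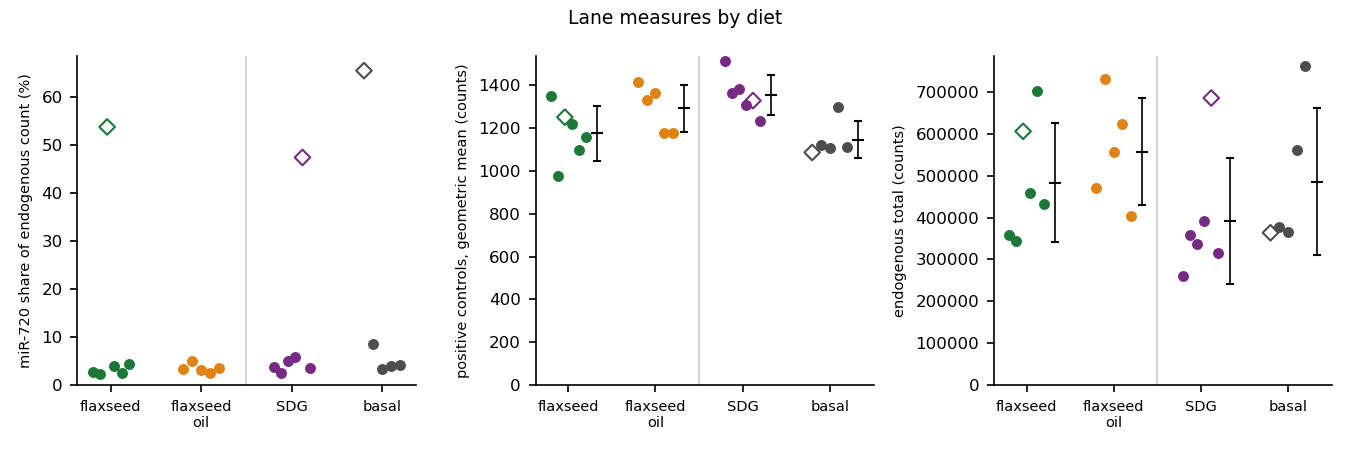
Share of miR-720 in the endogenous count (percent, left), geometric mean of the positive controls (counts, middle) and total endogenous count (right) for each lane, by diet; the grey line parts oil-containing diets (left) from diets without oil (right). Open diamonds are the 3 miR-720-rich lanes (53.7% in flaxseed lane 3, 47.4% in SDG lane 5, 65.5% in basal lane 1); black marks are the mean ± SD of a diet, drawn for the middle and right panels.

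Over both lignan levels, no miRNA separated the oil-containing diets from the diets without oil. Of 566 mouse miRNA probes, 253 were above background in at least 5 of the 22 lanes and were tested. In edgeR's quasi-likelihood test with oil and lignan as factors, 0 of 253 passed an adjusted p of 0.05 (0.0% called) and the smallest adjusted p was 0.9996, which holds for each miRNA named in this comparison. At an unadjusted p under 0.05 there were 5 (1.98%), 4 of them higher (1.58%) and 1 lower (0.395%) in oil-containing lanes. DESeq2 and limma-voom also called 0, with 7 and 1 at an unadjusted p under 0.05. No tested miRNA had 11 oil-containing lanes that all lay on 1 side of the 11 others (0.0%). The log2 fold changes had a median of 0.02, and 141 of 253 (55.7%) lay above 0. The median standard error was 0.22, which gives a median half-width of 0.46 on the log2 scale for the 95% interval of a fold change. In data simulated on these 253 probes with 48 of them changed, the same fit called 80.2% of the 2-fold changes and 97.1% of the 4-fold changes, with 0.829% of the unchanged probes called. The simulated probes varied independently of each other, without lanes that shift many miRNAs together. These shares are averages over probes of unlike spread, so they do not hold for each miRNA. Smaller shifts, and fewer than 48 changed probes, were not tested for in this way.

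The 5 miRNAs at an unadjusted p under 0.05 were miR-499, miR-2132, miR-27b and miR-30e, with more in oil-containing lanes, and miR-3471, with less. None of them passed the adjusted threshold. Levels below are log2 CPM, the log2 of counts brought to 1 library size for every lane, and serve to compare lanes within 1 miRNA. miR-499, a miRNA of slow and cardiac muscle fibres, had a level of 5.89 at the lowest, 6.30 at the median and 6.56 at the highest in oil-containing lanes, against 4.73, 5.88 and 6.69 in lanes without oil. All 11 oil-containing lanes lay above the median of the lanes without oil, but the 2 ranges overlapped. The log2 fold change of miR-499 was 0.38 ± 0.16 (SE, 95% interval 0.05 to 0.72). Its counts were near background, with 5 of 11 oil-containing lanes and 2 of 11 lanes without oil above it. Without the 3 miR-720-rich lanes the log2 fold change was 0.37.

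miR-27b, which lowers the fat cell regulator Pparg in cultured fat cells, was set apart by a single gland. Its level was 10.68 in flaxseed lane 3, and between 7.28 and 7.76 in the other flaxseed lanes. The flaxseed oil lanes held 7.51, 7.56, 7.02, 7.16 and 7.80, against a lowest, median and highest of 7.06, 7.31 and 7.35 in SDG lanes and values of 7.36, 7.59, 7.16, 7.56 and 7.36 in basal lanes. Flaxseed lane 3 stood alone, and without it the oil-containing lanes reached 7.80, against 7.59 at the top of the lanes without oil. The log2 fold change of miR-27b was 0.83 ± 0.37 (SE) over all lanes and 0.14 without the 3 miR-720-rich lanes.

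miR-30e, of a family that favours fat cell formation in human cells, and let-7g, of the family that restrains proliferation in differentiated cells, had the same shape. miR-30e stood at 12.05 in flaxseed lane 3 and between 9.12 and 9.49 in the other flaxseed lanes. Its flaxseed oil lanes held 9.71, 9.74, 10.00, 9.99 and 9.46, the SDG lanes ran between 9.26 and 9.85, and the basal lanes held 8.10, 9.18, 9.41, 9.37 and 9.67, with the lowest in basal lane 1. The highest lane was thus a flaxseed lane and the lowest a basal lane, with the others close together. The log2 fold change was 0.66 ± 0.30 (SE), which was 0.00 without the 3 lanes. let-7g had a lowest, median and highest level of 15.12, 15.48 and 16.60 in oil-containing lanes, against 14.30, 15.30 and 15.68 in lanes without oil. Its highest value was again in flaxseed lane 3 and its lowest in basal lane 1. Its log2 fold change was 0.34 ± 0.18 (SE), and 0.07 without the 3 lanes.

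miR-2132 and miR-3471 had the largest differences of these 5, and each had 1 lane far from the rest. miR-2132 had 13.35 in flaxseed lane 3 against at most 9.92 in the other flaxseed lanes. Its flaxseed oil lanes held 10.59, 9.46, 11.49, 11.81 and 10.27, against a median of 10.06 in SDG lanes and 9.51 in basal lanes, and only 5 of 11 oil-containing lanes lay above the median of the lanes without oil. The log2 fold change of miR-2132 was 1.17 ± 0.49 (SE), and 0.23 without the 3 lanes. miR-3471 was at 10.15 in basal lane 1 and at 6.16, 6.37, 5.68 and 6.55 in the other basal lanes. Its oil-containing lanes ran between 5.12 and 6.67, so they overlapped all basal lanes but that 1. The log2 fold change of miR-3471 was -1.07 ± 0.46 (SE), and -0.07 without the 3 lanes.

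Several leading miRNAs moved by under 1.5 times when the 3 lanes were left out. None of them passed the adjusted threshold either way. miR-1955 had levels between 7.85 and 8.32 in oil-containing lanes, against 7.94 and 8.78 at the ends of the range without oil, and 1 of 11 oil-containing lanes lay above the median of the others. Its log2 fold change was -0.19 ± 0.10 (SE), and -0.19 without the 3 lanes. miR-142-5p, 1 arm of a precursor made in blood cells, averaged 8.14 ± 0.58 in oil-containing lanes and 8.55 ± 0.59 in lanes without oil (SD, n = 11 each). Its log2 fold change was -0.41 ± 0.22 (SE) with all lanes and -0.41 without the 3. The Dlk1-Dio3 members miR-543, miR-376b and miR-411 had log2 fold changes of -0.43, -0.27 and -0.33 over all lanes, and -0.32, -0.29 and -0.39 without the 3 lanes. Housekeeping and positive control scaling moved the median of all tested miRNAs to 0.64 and 0.40. Under either, the values of miR-1955, miR-142-5p, miR-543, miR-376b and miR-411 lay above 0. The geometric mean of the housekeeping mRNAs was 135 counts in flaxseed lane 3 and 1070 or more in every other lane. miR-98, which has the let-7 seed, moved further: 9 of 11 oil-containing lanes lay above the median of the others, and the log2 fold change was 0.24 ± 0.13 (SE), against 0.15 without the 3 lanes.

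The other leading miRNAs were mostly near background or set by flaxseed lane 3. miR-25 was at 13.63 in flaxseed lane 3 and between 11.51 and 11.89 in the other flaxseed lanes, with a log2 fold change of 0.37, and -0.04 without the 3 lanes. miR-301b, with 10.81 in that lane against 8.96 to 9.37, had 0.32 and 0.01. miR-203, of differentiating epithelium, was at 10.63 in that lane and had 0.47 and 0.21 in the 2 fits. The low-count miR-706 was above background in 4 of 11 oil-containing lanes and 1 of 11 lanes without oil, with log2 fold changes of 0.78 and 0.44. The liver miRNA miR-122, above background in 7 of 11 oil-containing lanes and 3 of 11 lanes without oil, had 0.59 and 0.54. miR-7a had 0.49 and 0.11, miR-1937c -0.83 and -0.29, and the shared probe of miR-1937a and miR-1937b -0.95 and -0.26.

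A further group was fixed by its link to fat, lipids or the cell types of the gland, and none of it passed the threshold. miR-33, which sits in the sterol regulator gene Srebf2 and lowers cholesterol export, had a log2 fold change of 0.09 ± 0.24 (SE). miR-378, from an intron of Ppargc1b and abundant in fat tissue, averaged 12.17 ± 0.74 in oil-containing lanes and 12.14 ± 0.36 in lanes without oil (SD). Its log2 fold change was 0.15 ± 0.27 (SE), and -0.15 without the 3 lanes. miR-103 and miR-107, of the Pank gene introns and linked to insulin sensitivity in mice, had 0.04 ± 0.37 and 0.07 ± 0.30 (SE). In flaxseed lane 3 they were at 6.20 and 4.12, against 12.79 or more for miR-103 and 8.12 or more for miR-107 in the other flaxseed lanes. The epithelial miR-200c and miR-205 had -0.12 ± 0.28 and -0.10 ± 0.38, and miR-21, abundant in proliferating and inflamed tissue, 0.20 ± 0.20 (SE). The blood cell miRNA miR-142-3p had 0.54 ± 0.89 (SE), and -0.25 without the 3 lanes. The muscle miRNA miR-1 had -1.56 ± 1.79 (SE), the lowest value of all 253, and -0.67 without the 3 lanes. Each of these 95% intervals held 0.

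Described by lists, 27 in all, the oil comparison was small nearly everywhere. Of 9 let-7 members tested, 9 had a log2 fold change above 0, with a median of 0.20, against 141 of 253 (55.7%) and a median of 0.02 over all tested probes. None of them had an unadjusted p under 0.05. Without the 3 miR-720-rich lanes, 8 of 9 lay above 0 with a median of 0.07. Within flaxseed lane 3 the family itself did not move as 1: let-7b stood at 17.46, against 15.30 to 15.79 in the other flaxseed lanes, and let-7f at 9.36, against 11.88 to 13.36. The list of miRNAs known from fat cell differentiation had 23 of 26 above 0 with a median of 0.10, and 11 of 26 with a median of -0.02 without the 3 lanes. That of lipid metabolism had 15 of 18 above 0 with a median of 0.10, and 10 of 18 with 0.03. The miR-30 list had 5 of 5 above 0 with a median of 0.13, and 3 of 5 with 0.00. Only miR-27b and miR-30e among the fat cell members had an unadjusted p under 0.05, and 0 passed the adjusted threshold in any list.

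Lists of cell types gave medians of 0.10 for luminal epithelium (3 of 5 above 0), 0.18 for basal epithelium (1 of 2), 0.03 for adipocytes (4 of 6), 0.08 for lymphocytes (5 of 7) and 0.20 for myeloid cells (2 of 3). Without the 3 miR-720-rich lanes these medians were -0.08 (1 of 5 above 0), 0.04 (1 of 2), 0.07 (5 of 6), -0.11 (1 of 7) and -0.03 (0 of 3). The endothelial, fibroblast, smooth muscle, red cell, neuronal and liver lists, with 2 or 3 members each, gave 0.12, 0.05, -0.04, 0.23, 0.01 and 0.24. In the fit without the 3 lanes they gave 0.01, -0.02, 0.04, 0.11, -0.16 and 0.21. Striated muscle stood at -0.96 (2 of 5 above 0), with lanes spread far apart, and at -0.56 (1 of 5) without the 3 lanes. The remaining lists, miR-29, miR-34, inflammation, Clcn5 intron, estrogen receptor associated, breast oncogenic and breast tumour suppressor, had medians between -0.02 and 0.09. Leaving out the 3 lanes put them between -0.05 (miR-29, 0 of 3 above 0) and 0.05 (miR-34, 2 of 3). The lists of miR-17/92 and its paralogs (8 of 9 above 0), the miR-15/16 family (5 of 6) and the Sfmbt2 intron (4 of 8) had 0.14, 0.06 and 0.01, and 0.02, -0.02 and -0.10 without the 3 lanes. In bulk RNA, fewer cells of a type and less RNA per cell cannot be told apart.

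The comparison over both lignan levels joins 2 oil effects that lay mostly on opposite sides of 0. The first, oil without lignan, set 5 flaxseed oil lanes against 5 basal lanes, and the second, oil with lignan, set 6 flaxseed lanes against 6 SDG lanes. The 2 share no lane. Of the 253 tested miRNAs, 91 had the same sign in both (36.0%) and 162 the opposite sign. Across miRNAs, which share lanes and are not independent, Pearson's r between the 2 effects was -0.51 and Spearman's rho -0.39. When the 3 miR-720-rich lanes were left out, 78 of 253 had the same sign (30.8%), with r at -0.87 and rho at -0.58. Among miRNAs with both effects over 0.5 in size, 3 had the same sign and 18 opposite signs.

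**Figure D2:**
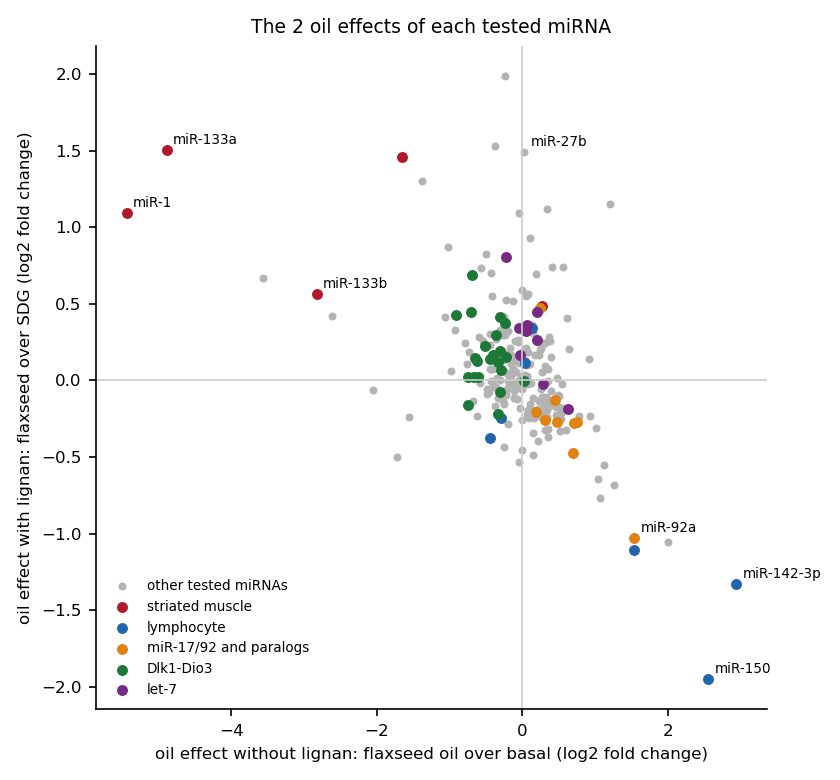
Oil effect without lignan (flaxseed oil over basal, log2 fold change, horizontal) against oil effect with lignan (flaxseed over SDG, log2 fold change, vertical) for 253 tested miRNAs, 1 point each, with 5 lists in colour. miR-92a, miR-142-3p and miR-150 lie at the lower right, miR-1, miR-133a and miR-133b at the upper left, and Pearson's r over all points is -0.51.

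With all 22 lanes and the filter on background, neither effect alone had a miRNA past the adjusted threshold in edgeR. Without lignan, 0 of 253 passed (0.0%, smallest adjusted p = 0.197), and 39 (15.4%) had an unadjusted p under 0.05, 13 higher (5.14%) and 26 lower (10.3%) on flaxseed oil. DESeq2 called 6 in this contrast, the muscle miRNAs miR-1, miR-133a and miR-133b and, on the other side of 0, miR-92a, miR-150 and miR-142-3p. On leaving out the 3 miR-720-rich lanes edgeR called 1, miR-338-3p (-1.28, adjusted p = 0.0184), and with no filter 1, miR-1952 (-2.53, adjusted p = 0.0292). With lignan, 0 passed (0.0%, smallest adjusted p = 0.804, 0 by DESeq2), and 13 (5.14%) had an unadjusted p under 0.05, 10 higher (3.95%) and 3 lower (1.19%) on flaxseed. The difference of the 2 effects, the interaction of oil and lignan, had 0 past the threshold (0.0%, smallest adjusted p = 0.0758, for miR-150) and 43 (17.0%) at an unadjusted p under 0.05, 26 higher (10.3%) and 17 lower (6.72%). DESeq2 called 11 for this difference, and edgeR without the 3 miR-720-rich lanes called 14, 7 in each direction. Leaving out SDG lane 5 alone gave 12 edgeR calls. The miRNAs of the interaction described next were chosen after their values were seen.

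miR-150, which marks mature lymphocytes and lowers the transcription factor Myb, split the lanes into high and low ones. Its level was 14.04, 11.37, 15.02, 14.89 and 11.34 in flaxseed oil lanes 1, 2, 3, 4 and 6, against 12.10, 11.45, 11.12, 11.38 and 11.26 in basal lanes. Flaxseed lanes ran between 11.36 and 12.22, against 14.46, 15.27, 11.11, 11.78, 11.09 and 12.01 in SDG lanes 1 to 6. Thus 3 flaxseed oil lanes and 2 SDG lanes were high, and the other lanes were close together. The oil effect on miR-150 was 2.56 ± 0.78 without lignan and -1.95 ± 0.70 with lignan (log2, SE), a difference of -4.51 ± 1.05 (adjusted p = 0.0758). The difference was -5.18 without the 3 miR-720-rich lanes (adjusted p = 0.0142). Averaged over lignan, it was 0.01 ± 0.87 (SE).

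The same 5 lanes were the highest for miR-142-3p and miR-342-3p, but not for every miRNA of blood cells. miR-142-3p, a miRNA of all blood cells, had 15.03, 16.22 and 15.91 in flaxseed oil lanes 1, 3 and 4, 15.54 and 15.98 in SDG lanes 1 and 2, and at most 14.73 elsewhere, in flaxseed lane 3. miR-342-3p had 11.60, 12.64 and 12.31 in those flaxseed oil lanes, 11.97 and 12.42 in those SDG lanes, and at most 10.40 elsewhere. Their oil effects were 2.94 and 1.54 without lignan, and -1.33 and -1.11 with lignan. They were 2.69 and 1.52, and -2.40 and -1.18, without the 3 miR-720-rich lanes, with adjusted p = 0.0201 and 0.0458 for the difference. Of the 7 listed lymphocyte miRNAs, 5 lay above 0 without lignan (median 0.14) and 2 with lignan (median -0.38), against 120 of 253 (47.4%, median -0.03) and 138 of 253 (54.5%, median 0.03) over all tested miRNAs. Without the 3 lanes these list medians were 0.33 and -0.66. With all lanes, the difference of the 2 effects lay below 0 for miR-150, miR-142-3p and miR-342-3p and above 0 for the other 4 listed members. Among these 4 was the arm miR-142-5p, with effects of -0.44 and -0.38. Without the 3 lanes the difference lay below 0 for miR-142-5p, miR-155 and miR-181a too (-0.56, -0.63 and -0.41). Of the 4, only miR-29c then stayed above 0 (0.26), and none of the 4 passed the adjusted threshold. The blood cell miRNAs miR-223 and miR-486, of the myeloid and red cell lists, were chosen after their values were seen. Their differences lay above 0, the other way round from miR-150. With all lanes, each was the only 1 of the 3 members of its list above 0. The list medians of the difference were -0.22 for myeloid and -0.045 for red cell, and -0.20 and 0.29 without the 3 lanes. miR-223, of granulocytes and macrophages, had 11.23, 11.44, 11.44, 11.39 and 11.81 in flaxseed oil lanes, against 11.59, 12.15, 12.001, 11.91 and 11.83 in basal lanes, with oil effects of -0.44 ± 0.18 without lignan and 0.30 ± 0.16 with lignan (log2, SE). miR-486, made in red cell precursors and in muscle, had 8.78, 8.72, 8.24, 8.77 and 9.93 in flaxseed oil lanes, against 10.39, 8.89, 10.09, 10.79 and 9.12 in basal lanes, with oil effects of -1.02 ± 0.41 and 0.87 ± 0.37 (SE). Both diets overlapped for each of them. With all lanes neither passed for the difference in edgeR, while DESeq2 called both, and edgeR called miR-223 without the 3 lanes (adjusted p = 0.0402) and miR-486 without flaxseed oil lane 6 (adjusted p = 0.0338) or SDG lane 5 (adjusted p = 0.0450). The mouse gland of the 4th pair surrounds a lymph node, and the labels do not say whether it was taken out, so the summed level of the lymphocyte list is given here: a lowest, median and highest of 14.44, 16.04 and 16.99 on flaxseed oil and 14.08, 14.49 and 14.74 on the basal diet, then 14.55, 14.67 and 15.80 on flaxseed and 14.50, 14.79 and 16.93 on SDG. Its part in the results that follow was not tested.

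Members of the miR-17/92 and miR-15/16 families, which act on cell cycle and survival genes, were also highest in those 5 lanes. miR-92a had 8.22, 8.63 and 8.23 in flaxseed oil lanes 1, 3 and 4 and 7.97 and 7.71 in SDG lanes 1 and 2, and at most 6.87 elsewhere. Its counts in flaxseed lanes 1 and 2 and basal lane 3 were below background, so the size of its effects is uncertain. miR-15b had 12.26, 13.05 and 12.93 and then 12.53 and 13.26 in those lanes, and at most 11.74 elsewhere. The oil effect on miR-92a was 1.54 ± 0.48 without lignan and -1.03 ± 0.44 with lignan (SE), and that on miR-15b 1.27 ± 0.43 and -0.68 ± 0.39. Leaving out the 3 miR-720-rich lanes gave 1.65 and -1.23 for miR-92a and 1.13 and -1.03 for miR-15b, with adjusted p = 0.0201 and 0.0425 for the difference. The summed level of the miR-15/16 list was 15.65 or more in those 5 lanes and 15.47 or less elsewhere. That of miR-17/92 and its paralogs was not highest in the 5 lanes alone: they held 14.40 to 14.73, and flaxseed lanes 3 and 5 held 14.63 and 14.47. Of the 9 members of miR-17/92 and its paralogs, 9 lay above 0 without lignan (median 0.48) and 1 with lignan (median -0.27). The 6 members of the miR-15/16 family gave 6 above 0 (median 0.29) and 0 above 0 (median -0.23). The Sfmbt2 intron list had 5 of 8 above 0 without lignan (median 0.40) and 0 of 8 with lignan (median -0.43). The luminal epithelial list had 5 of 5 above 0 (median 0.37) and 2 of 5 (median -0.32). Without the 3 lanes, the medians without and with lignan were 0.32 and -0.27 for miR-17/92, 0.097 and -0.19 for miR-15/16, 0.64 (8 of 8 above 0) and -0.84 for Sfmbt2, and 0.22 and -0.47 for luminal epithelium.

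Most of the listed muscle miRNAs ran the other way. miR-1, which is nearly confined to striated muscle, had 11.68, 8.73, 7.996, 7.86 and 10.95 in flaxseed oil lanes, against 12.36, 8.25, 16.33, 17.43 and 9.95 in basal lanes. Its flaxseed lanes ran between 12.50 and 15.74 (median 13.70), and the SDG lanes between 8.16 and 15.86 (median 8.98). Basal lanes 3 and 4 and SDG lane 5 exceeded every flaxseed lane, so the diets overlapped. The oil effect on miR-1 was -5.43 ± 1.76 without lignan and 1.09 ± 1.34 with lignan (SE), a difference of 6.53 ± 2.16 (adjusted p = 0.119). The size depended on SDG lane 5: without it the effect with lignan was 4.01 and the difference 9.46 (adjusted p = 0.0119), and without all 3 miR-720-rich lanes they were 4.21 and 9.94 (adjusted p = 0.0120). miR-133a, of the same muscle transcript, had effects of -4.88 and 1.503, and miR-133b -2.82 and 0.56. Without the 3 lanes these were -4.97 and 3.69 for miR-133a and -2.92 and 1.04 for miR-133b (adjusted p = 0.00947 and 0.0425 for the difference). The striated muscle list had a median of -2.82 without lignan (4 of 5 below 0) and 1.09 with lignan (5 of 5 above 0). Without the 3 lanes, its member miR-206 had -1.78 and 1.32, but miR-499 lay above 0 at both lignan levels (0.37 and 0.37). The 5 lanes high in miR-150 had miR-1 levels of 11.68, 7.996, 7.86, 8.16 and 8.25.

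The miRNAs of the imprinted Dlk1-Dio3 cluster also lay mostly on opposite sides of 0 in the 2 lignan levels. Of 22 members tested, of 50 probes on the panel, 21 lay below 0 on flaxseed oil against basal (median -0.42), and 18 lay above 0 on flaxseed against SDG (median 0.14). Over both lignan levels 18 of 22 lay below 0 (median -0.10), against 112 of 253 over all tested probes. With housekeeping scaling that median was 0.66 beside 0.64 over all tested probes, and with positive control scaling 0.24 beside 0.40. miR-410 had levels of 6.37, 7.27, 6.35, 6.72 and 7.03 in flaxseed oil lanes, against 8.48, 7.45, 7.57, 7.54 and 7.22 in basal lanes. The 2 diets overlapped only through flaxseed oil lane 2 and basal lane 6. The oil effect on miR-410 was -0.91 ± 0.33 without lignan and 0.42 ± 0.30 with lignan (SE), and miR-127, another member, had -0.69 and 0.69. In the fit without the 3 miR-720-rich lanes miR-410 had -0.68 and 0.30 (adjusted p = 0.0201 for the difference) and miR-127 -0.38 and 0.37. Of the 22, 6 had an unadjusted p under 0.05 without lignan, against 39 of 253 (15.4%) over all tested probes, and 0 with lignan, against 13 of 253 (5.14%). Without the 3 miR-720-rich lanes the median was -0.47 without lignan (4 of 22 above 0) and 0.07 with lignan (12 of 22 above 0).

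**Figure D3:**
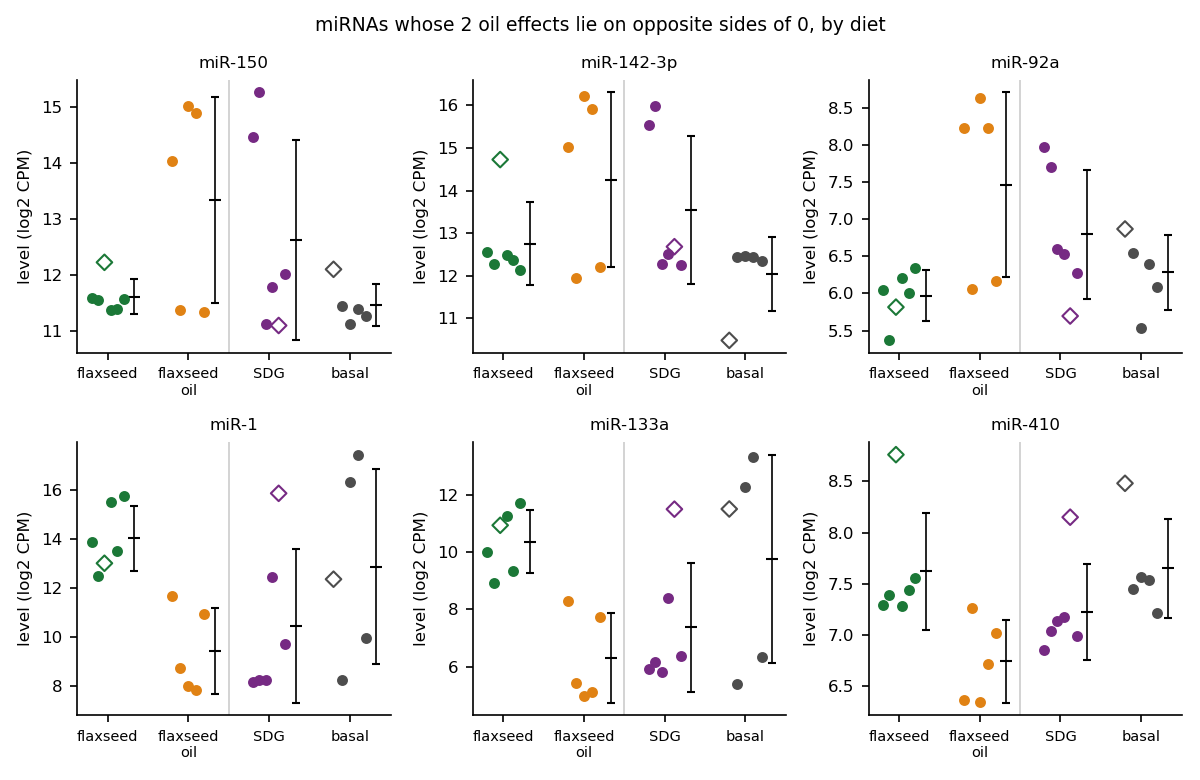
Level (log2 CPM) of 6 miRNAs whose 2 oil effects lie on opposite sides of 0, in every lane, by diet, with oil-containing diets left of the grey line; open diamonds are the 3 miR-720-rich lanes and black marks are the mean ± SD of a diet. miR-150 is high in 3 flaxseed oil lanes (14.04 to 15.02) and 2 SDG lanes (14.46 and 15.27), and miR-1 spans 8.25 to 17.43 among basal lanes.

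In the smaller contrast without lignan, 5 miRNAs had flaxseed oil lanes that did not overlap the basal lanes, 3 above them (1.19%) and 2 below (0.791%), and with lignan there were 0 in either direction (0.0%). miR-106b, the Mcm7 neighbour of miR-25, had 11.37, 11.35, 11.84, 11.77 and 11.14 in flaxseed oil lanes, against 9.56, 11.05, 10.90, 10.76 and 11.11 in basal lanes. Its effect was 0.75 ± 0.24 without lignan and -0.27 ± 0.22 with lignan (SE). miR-192 and miR-194, a pair that share transcripts, had effects of 0.48 and 0.54 without lignan, with counts at or near background for miR-192. miR-204 had 8.20, 8.57, 7.67, 8.25 and 8.76, against 9.17, 8.87, 9.98, 8.99 and 9.01 in basal lanes, an effect of -0.93 ± 0.35 (SE). miR-501-3p had an effect of -0.78 ± 0.26 (SE). With lignan, the effects on miR-192, miR-194, miR-204 and miR-501-3p were 0.02, -0.02, 0.33 and 0.24. Without the 3 miR-720-rich lanes, the effects without and with lignan were 0.53 and -0.35 for miR-106b (adjusted p = 0.0766 for the difference). For miR-204 they were -0.99 and 0.57 (adjusted p = 0.0142 for the difference). In that fit miR-192 had 0.38 and 0.06, miR-194 0.38 and 0.04, and miR-501-3p -0.58 and 0.14. These 5 were picked by their separation.

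**Figure D4:**
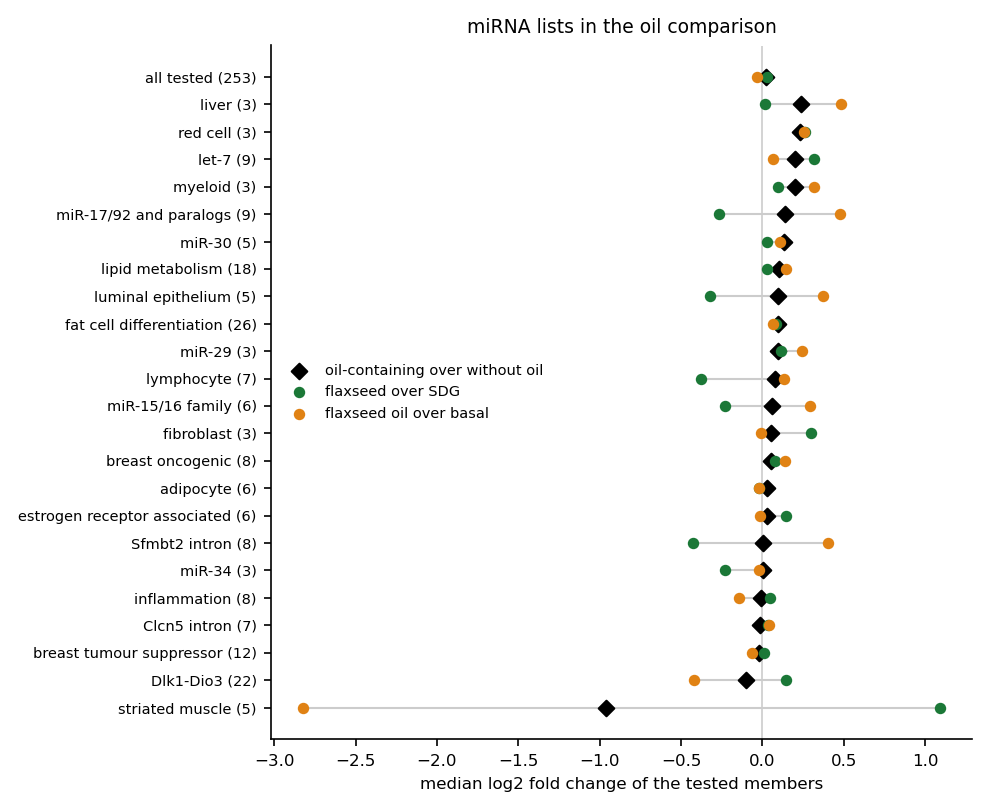
Median log2 fold change of the tested members of each list (number tested in brackets) for oil-containing diets over diets without oil (black diamonds), flaxseed over SDG (green) and flaxseed oil over basal (orange); lists with fewer than 3 tested members are left out. The muscle list spans -2.82 to 1.09 around -0.96, while all tested probes have medians of 0.02, 0.03 and -0.03.

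The labels number the glands in 2 runs, 1 to 12 for basal and flaxseed and 13 to 24 for flaxseed oil and SDG. The difference of the 2 oil effects is the same contrast as that between these runs, so the 2 cannot be told apart, whereas the oil factor itself is balanced over them. The geometric mean of the positive controls, which are added RNAs and carry no tissue signal, was 1328 ± 101 in lanes numbered 13 to 24 and 1163 ± 108 in those numbered 1 to 12 (SD, n = 11 each, exact permutation p = 0.00182, adjusted over 6 measures p = 0.0109). Whether the numbers follow cartridges is not given in the labels. Within the runs, the oil factor can be read as flaxseed over basal and as flaxseed oil over SDG. These 2 gave 20 and 18 miRNAs at an unadjusted p under 0.05 (7.91% and 7.11%) and 0 past the adjusted threshold each (0.0%, smallest adjusted p = 0.569 and 0.503). They had the same sign for 103 of 253 miRNAs (40.7%). miR-499 had 0.01 and 0.75 in them, miR-27b 1.34 and 0.18, miR-30e 1.02 and 0.27, let-7g 0.53 and 0.12, miR-98 0.22 and 0.24, and miR-543 -0.36 and -0.54. Without the 3 miR-720-rich lanes, flaxseed over basal and flaxseed oil over SDG had 0 and 1 past the threshold (miR-872, -0.59, adjusted p = 0.0450, in the second). miR-27b was then at 0.10 and 0.17, miR-30e at -0.20 and 0.24, let-7g at 0.039 and 0.098, miR-98 at 0.0088 and 0.28, miR-543 at -0.041 and -0.59, and miR-499 at 0.018 and 0.72.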

How the data were processed

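Mouse mammary gland RNA was counted on a NanoString panel, and the raw counts per probe and lane were deposited without normalization, per the file headers. A table of log2 values deposited by the authors, whose scaling is not given in the sources used here, served as an alternative. There were 0 columns left unused. A probe was above background where its count exceeded the mean of the lane's 8 negative controls plus 2 SD, and was tested if above in 5 of 22 lanes. Counts were fitted with edgeR 4.0.16 (R 4.3.3, TMM scaling, quasi-likelihood F-test, oil and lignan as factors) and a 4-level diet fit for the separate oil effects, with Benjamini-Hochberg adjustment. Levels are log2 CPM with 1 added to the count. Alternatives used DESeq2 1.42.0, limma 3.58.1, other scalings, filters and lanes left out. The miRNAs named in full are the 20 with the smallest p, the leader of each of 27 lists, and 12 fixed ones, 44 in all. Members and lists were chosen with earlier results of these data known. The fit was tested on simulated data.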

Additional observations from a re-analysis of the deposited data

Results flagged for a closer look

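Within diets, 31 values lay further from their group than Dixon's 95% critical value, among 180 group tests. Of these tests, 156 were on 39 miRNAs, many of them chosen for small p-values in the same lanes. The tests also share lanes, so they are not independent. A chance rate of about 1 in 20 is therefore no reference for the 31 values. Of the 31, 25 were in the 3 miR-720-rich lanes. Their shares of 53.7% (flaxseed lane 3), 47.4% (SDG lane 5) and 65.5% (basal lane 1) were themselves such values. In flaxseed lane 3 the high levels (log2 CPM) were those of miR-2132 (13.35), miR-27b (10.68), miR-30e (12.05), let-7g (16.60), miR-25 (13.63), miR-301b (10.81), miR-378 (14.17), miR-150 (12.22), miR-142-3p (14.73), miR-15b (11.74) and miR-410 (8.76). The low ones in that lane were miR-103 (6.20), miR-107 (4.12) and miR-342-3p (7.84). In basal lane 1, miR-3471 (10.15) and miR-410 (8.48) were high, and miR-21 (13.00), miR-142-3p (10.48) and miR-106b (9.56) were low. In SDG lane 5, miR-410 (8.15), the total count (685937) and the share of probes above background (50.4%) were high. The others were miR-499 in SDG lane 6 (4.73), miR-543 (8.44) and miR-1955 (7.90) in flaxseed lane 5, miR-142-5p in SDG lane 1 (9.47), miR-122 in flaxseed lane 1 (4.83) and the positive controls in basal lane 4 (1299 counts).

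A probe against a murine cytomegalovirus miRNA, mcmv-miR-M23-2, lay outside the tests and averaged 197.8 raw counts in flaxseed oil lanes, each above the raw count of every basal lane. It had 144 to 229 counts in the 5 flaxseed oil lanes, 12 to 99 in the flaxseed lanes, 39 to 107 in the SDG lanes and 81 to 134 in the basal lanes. On the log2 CPM scale the diets overlapped, with 8.06 to 8.55 in flaxseed oil lanes and 7.30 to 9.19 in basal lanes, the highest of them in basal lane 1. What the probe captured in these glands was not tested.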

How the results depend on the processing

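The oil comparison had 0 calls under all 38 alternatives run (1 of them, the 2 runs of label numbers as a block, was chosen after seeing the data), with 1 (limma-voom) to 46 (housekeeping scaling) miRNAs at an unadjusted p under 0.05. With a block for replicate numbers (the replicate block) it was also 0, as were both separate oil effects and their difference; the smallest adjusted p for the difference was 0.168. Same-numbered lanes did not deviate together as a set: 12 of 31 pairs had a correlation over 0.1 (median 0.016, range -0.62 to 0.54). The median was 0.019 for other pairs of lanes between diets. These correlations show no pairing by number, but they cannot exclude one. A block for cartridge or scan was not run, since no header gives one. For the difference of the 2 oil effects the count was 11 by DESeq2, 4 with total count scaling, 1 with no filter and 14 on leaving out the 3 miR-720-rich lanes, and 0 to 12 with each lane left out in turn (12 without SDG lane 5, 6 without flaxseed oil lane 2, 4 without flaxseed oil lane 6, 3 without flaxseed lane 3, 1 without SDG lane 3). For oil without lignan it was 6 by DESeq2, 1 with no filter and 1 without the 3 lanes. Why these counts moved was not tested. Housekeeping and positive control scaling moved the median of all tested miRNAs to 0.64 and 0.40.

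The oil effects (log2) of these miRNAs turned sign, all with an adjusted p over 0.05, and the cause was not tested. Under housekeeping scaling, miR-125b-5p was 0.041, miR-142-5p 0.57, miR-145 0.16, miR-1937a+miR-1937b 0.39, miR-1937c 0.34, miR-1955 0.47, miR-200c 0.76, miR-205 0.44, miR-297c 0.67, miR-376b 0.40, miR-411 0.47, miR-501-3p 0.52 and miR-543 0.43. Under positive control scaling, miR-125b-5p was 0.18, miR-142-5p 0.0059, miR-145 0.37, miR-1955 0.21, miR-200c 0.35, miR-205 0.45, miR-297c 0.21, miR-34c 0.12, miR-376b 0.085, miR-411 0.039, miR-501-3p 0.16 and miR-543 0.051. Without the 3 miR-720-rich lanes, miR-126-3p was -0.018, miR-141 -0.0048, miR-142-3p -0.25, miR-145 0.050, miR-150 -0.27, miR-21 -0.027, miR-25 -0.042, miR-29a -0.080, miR-33 -0.070 and miR-378 -0.15. With DESeq2, miR-150 was -0.020. With DESeq2 size factors in edgeR, miR-150 was -0.020. Scaled by the 100 most abundant probes, miR-103 was -0.0084, miR-107 -0.012 and miR-150 -0.0062. Scaled by total count, miR-145 was 0.073 and miR-150 -0.019. With probes above background in 11 lanes, miR-150 was -0.037. With negative controls subtracted, miR-150 was -0.075. With limma-voom, miR-1 was 0.46, miR-103 -0.35 and miR-107 -0.19. In the deposited log2 table, miR-1 was 0.58, miR-103 -0.34 and miR-107 -0.22. With no filter, miR-145 was 0.024 and miR-205 0.027. With the replicate block, miR-1 was 0.33 and miR-103 -0.00846. With each lane left out in turn, signs turned within ranges of -0.011 to 0.18 for miR-103, -0.048 to 0.20 for miR-107, -0.20 to 0.0072 for miR-145, -0.32 to 0.56 for miR-150, -0.43 to 0.023 for miR-205 and -0.18 to 0.24 for miR-378.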
